A study of Homo sapiens with 6 samples.

Results

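The genes described here encode membrane carriers of amino acids and related small molecules. They were chosen by name, as every row of the deposited count table whose gene symbol is a numbered member of solute carrier families SLC1, SLC3, SLC6, SLC7, SLC36, SLC38 or SLC43. The rule took 59 of 58243 genes and used no measured value. RNA was sequenced from cells labelled Hep3B, a human hepatocellular carcinoma line grown in DMEM with 10% FBS. The treated cells carried si-SNHG17-1, a small interfering RNA against the long noncoding RNA SNHG17, and the control cells carried si-NC, with 3 libraries in each group. Whether the 3 libraries came from separate cultures is not stated, so p-values rest on differences among the libraries alone, and these may be only technical. A single siRNA against SNHG17 is analysed here, in a single cell line.

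Amino acid carriers decide how fast a dividing cell can take up the building blocks of protein. The SLC7 light chains that reach the cell surface as heterodimers need an SLC3 heavy chain, and LAT1 (SLC7A5 with SLC3A2) exchanges intracellular glutamine for leucine and other large neutral amino acids. SLC1A5 and the SLC38 carriers bring in glutamine and small neutral amino acids with sodium, and leucine and arginine then signal to the growth kinase mTORC1. Several families in the rule also hold carriers of other substrates, such as SLC6A8 (creatine), SLC6A6 (taurine), SLC43A3 (purine nucleobases) and SLC6A2, SLC6A3 and SLC6A4 (monoamines).

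Total counts were 37789407, 41620321 and 30207055 in the si-SNHG17-1 libraries, and 38245838, 42271168 and 40351473 in the si-NC libraries. SNHG17 averaged 8.11 ± 0.139 CPM (read counts relative to the TMM-scaled library size) in si-SNHG17-1 and 23.0 ± 0.789 CPM in si-NC (SD, n = 3 each), so 35.2% of the control level remained. Marker genes gave little hepatocyte signal in these cells. For all marker genes here, CPM are relative to total counts, without TMM scaling. Of 10 hepatocyte and Hep3B markers, 9 were under 1 CPM in every library, AFP and ALB among them, and TTR and GPC3 had no counts. The sum of all 10, led by FGB, was 3.18 to 4.76 CPM in si-SNHG17-1 and 2.16 to 3.27 CPM in si-NC. All 5 blood cell markers were under 1 CPM. Summed fibroblast markers, led by COL1A1, were 156 to 168 CPM in si-SNHG17-1 and 122 to 130.3 CPM in si-NC, and 1 of the 5 (COL1A2) had no counts. Summed endothelial markers, led by CDH5, were 5.96 to 7.73 CPM in si-SNHG17-1 and 2.23 to 3.71 CPM in si-NC, and KDR, 1 of the 4, had no counts. Summed epithelial markers, led by KRT8, were 740.2 to 755 CPM in si-SNHG17-1 and 832 to 944 CPM in si-NC, with EPCAM and CDH1 under 1 CPM. The part of these marker differences in the results below was not tested.

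Of the 59 genes, 36 had enough counts to be tested. After si-SNHG17-1, 4 of them were lower (SLC7A5, SLC43A1, SLC38A1 and SLC6A9) and 3 were higher (SLC7A8, SLC6A8 and SLC7A1) at a Benjamini-Hochberg adjusted p under 0.05 in edgeR's quasi-likelihood test. That is 19.4% of the tested carriers, against 10.5% of all 18679 genes tested. The lower calls make up 5.21% of all genes and the higher calls 5.25%. Only SLC7A8 was called with a change of at least 2-fold, a size of call made for 1.9% of all genes. Without si-NC replicate 3 its log2 fold change was 0.90, and SLC1A3 was the 2-fold call instead. The median log2 fold change of the 36 carriers was 0.0062, beside -0.0017 over all tested genes, and 18 carriers had a positive and 18 a negative value. With any single si-SNHG17-1 library or si-NC replicate 1 left out, SLC7A8 was the sole higher call, and the higher calls numbered 3 without si-NC replicate 2 and 2 without si-NC replicate 3. The lower calls numbered 3 to 6 over those 6 fits. In bulk RNA, a smaller number of cells that express a gene and less RNA per cell cannot be told apart.

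By family, the SLC7 genes held 2 higher and 1 lower call among 7 tested, and the SLC6 genes 1 of each among 9 tested. SLC38 had 1 lower call of 9 and SLC43 had 1 lower call of 3. No gene was called among the 4 tested SLC1 genes, the 2 SLC3 genes or the 2 tested SLC36 genes, although 2 SLC1 genes and 1 SLC3 gene had an unadjusted p under 0.05 in edgeR (0 in SLC36), as did 26.8% of all tested genes, and DESeq2 called 1 gene in SLC1 and 1 in SLC3. All 3 SLC43 genes and both SLC3 genes had negative log2 fold changes, while both tested SLC36 genes and 6 of 7 tested SLC7 genes had positive ones. Over all tested genes, 50.2% were negative. For SLC36A1, SLC7A6 and SLC7A7 the standard error exceeded the log2 fold change, and the sign changed in some alternative fits. The family medians ran between -0.39 in SLC43 and 0.26 in SLC7. Groups did not overlap in any library for 6 genes that were higher and 7 that were lower, 13 of the 36 carriers, and 33.7% of all tested genes met the same condition (16.4% higher, 17.3% lower).

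**Figure D1:**
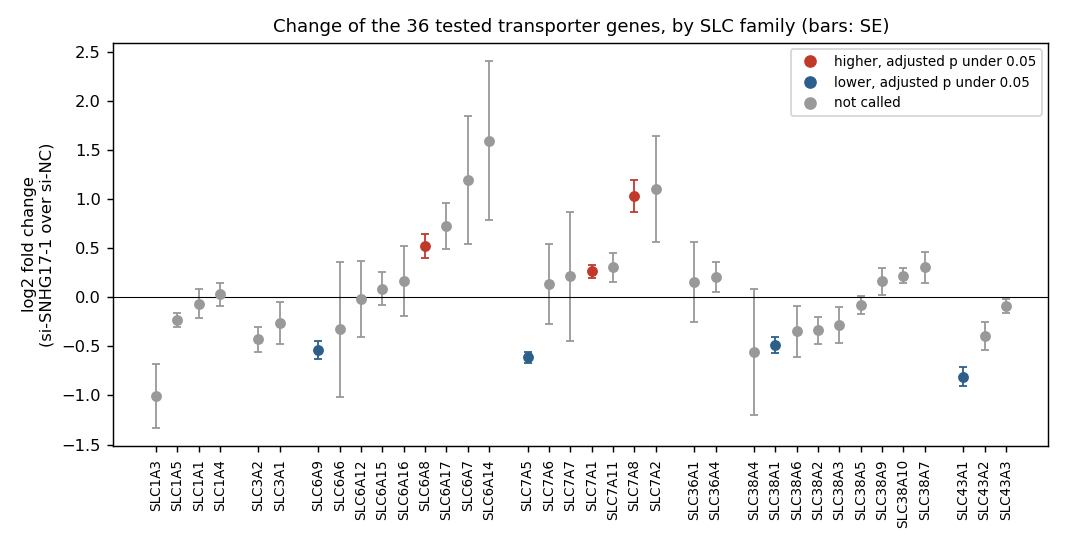
Log2 fold change (si-SNHG17-1 over si-NC) of each of the 36 tested carrier genes, grouped by SLC family, with bars for the standard error. The 7 coloured genes passed the edgeR threshold: 3 lie above 0 and 4 below it, and the widest bars belong to weakly expressed genes and to SLC6A6.

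Per length of exon, SLC7A5 stood at 379 ± 18.8 CPM per kilobase of exon in si-SNHG17-1 and 579 ± 28.7 in si-NC (SD, n = 3 each), the highest of the 36 in both groups. By this measure it was gene number 25 of 18619 in si-NC. SLC38A2 (127), SLC3A2 (104), SLC38A1 (102) and SLC1A5 (87.3) followed in si-NC, each in CPM per kilobase. The order of SLC38A2, SLC3A2 and SLC38A1 lay within their spread, with SDs in si-NC of 26.2, 19.5 and 8.63 CPM per kilobase. SLC1A5, with an SD of 5.17, lay below every si-NC library of SLC38A1, and SLC7A5 stood far above SLC38A2. SLC7A5 made up 36.8% ± 1.12 of the summed per-kilobase level of all 59 genes in si-SNHG17-1 and 43.6% ± 1.46 in si-NC. The summed CPM of all 59 genes was 5997 ± 239 in si-SNHG17-1 and 7559.7 ± 66.3 in si-NC, and SLC7A5 accounted for 60.8% of that difference. Without SLC7A5 the sum was 4198 ± 186 CPM in si-SNHG17-1 and 4810.4 ± 71.0 CPM in si-NC.

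**Figure D2:**
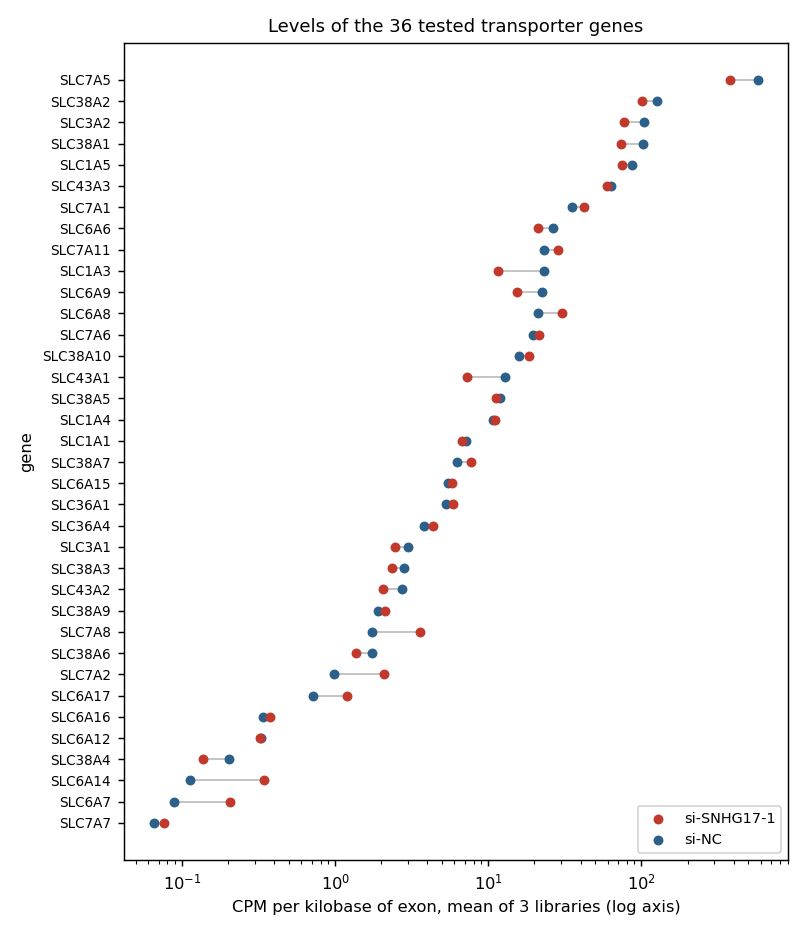
Mean CPM per kilobase of exon of the 36 tested carrier genes (log axis, 3 libraries per group), ordered by the level in si-NC. SLC7A5 stands apart at the top at 379 in si-SNHG17-1 and 579 in si-NC, and the lowest gene, SLC7A7, is near 0.0765 and 0.0652.

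The L-type carriers of leucine and other large neutral amino acids moved in different directions. SLC7A5 (LAT1, ENSG00000103257.8, chromosome 16, 87830023 to 87869488, minus strand, GRCh38) had 1806, 1885 and 1707 CPM in si-SNHG17-1, against 2800.1, 2595 and 2853 CPM in si-NC. Every si-SNHG17-1 library lay well below every si-NC library. The log2 fold change was -0.61 ± 0.06 (SE), leaving 65.4% of the control level (edgeR adjusted p = 0.00206). It passed the threshold in every alternative fit that was run. The pseudogenes SLC7A5P1 and SLC7A5P2, which copy part of SLC7A5, had 1.96 and 1.52 CPM in si-SNHG17-1 and 3.51 and 2.30 CPM in si-NC, so few reads can have been assigned to them. Exons of AC126696.2 overlap 5.71% of the exon bases of SLC7A5 on the opposite strand, at 0.813 CPM in si-SNHG17-1 and 0.778 CPM in si-NC.

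SLC43A1 (LAT3, ENSG00000149150.8, chromosome 11, 57484534 to 57515786, minus strand) is a uniporter of branched-chain amino acids and phenylalanine that needs no heavy chain. It had 25.9, 26.2 and 25.0 CPM in si-SNHG17-1, against 45.4, 42.9 and 46.8 CPM in si-NC. The groups were far apart and each was tight, with a log2 fold change of -0.81 ± 0.10 (SE, edgeR adjusted p = 0.00387). This call too held in all alternative fits. Its relative SLC43A2 (LAT4) was at 20.6, 25.7 and 19.2 CPM in si-SNHG17-1, against 27.7, 31.0 and 27.5 CPM in si-NC. The groups did not overlap, but the difference was not called (log2 fold change -0.39 ± 0.14 SE, edgeR adjusted p = 0.124).

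SLC7A8 (LAT2, ENSG00000092068.19, chromosome 14, 23125295 to 23183674, minus strand), a second SLC3A2-dependent light chain with wider substrate choice, went the other way. Its values were 20.7, 20.9 and 22.5 CPM in si-SNHG17-1, against 12.02, 10.9 and 8.47 CPM in si-NC. All 3 si-SNHG17-1 libraries were above the highest si-NC library, and the log2 fold change was 1.03 ± 0.16 (SE, edgeR adjusted p = 0.00955). The call held in every alternative fit except the one with a block for replicate number. SLC7A8 remained far below SLC7A5. The ratio of SLC7A8 to SLC7A5, in CPM per kilobase, was 0.00944 ± 0.000868 in si-SNHG17-1 and 0.00302 ± 0.000583 in si-NC (SD, n = 3 each). That pair was chosen after its values were seen and carries no test.

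The shared heavy chain SLC3A2 (4F2hc or CD98, ENSG00000168003.16, chromosome 11, 62856102 to 62888875, plus strand) had 377, 431 and 388 CPM in si-SNHG17-1, against 454, 509 and 649 CPM in si-NC. Again the groups did not overlap, while the si-NC libraries spread widely. With a log2 fold change of -0.43 ± 0.13 (SE) it missed the threshold in edgeR (adjusted p = 0.0801) and passed it in DESeq2 (adjusted p = 0.0291) and in edgeR without si-NC replicate 1 (adjusted p = 0.0398). The ratio of SLC7A5 to SLC3A2 in CPM was 4.52 ± 0.234 in si-SNHG17-1 and 5.22 ± 0.894 in si-NC (SD, n = 3 each). The ranges of that ratio overlapped. An exact two-sided permutation test gave p = 0.3, and with 3 libraries against 3 it cannot go below 0.1, so it cannot show that the ratios are alike. SLC3A1, the heavy chain of the cystine and dibasic amino acid carrier, was at 16.4, 11.4 and 20.6 CPM in si-SNHG17-1, against 20.5, 19.95 and 17.7 CPM in si-NC, with overlapping ranges (log2 fold change -0.27). Its exons share 29.4% of their bases with PREPL on the other strand and 26.9% with AC013717.1 on the same strand, so its counts are uncertain.

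**Figure D3:**
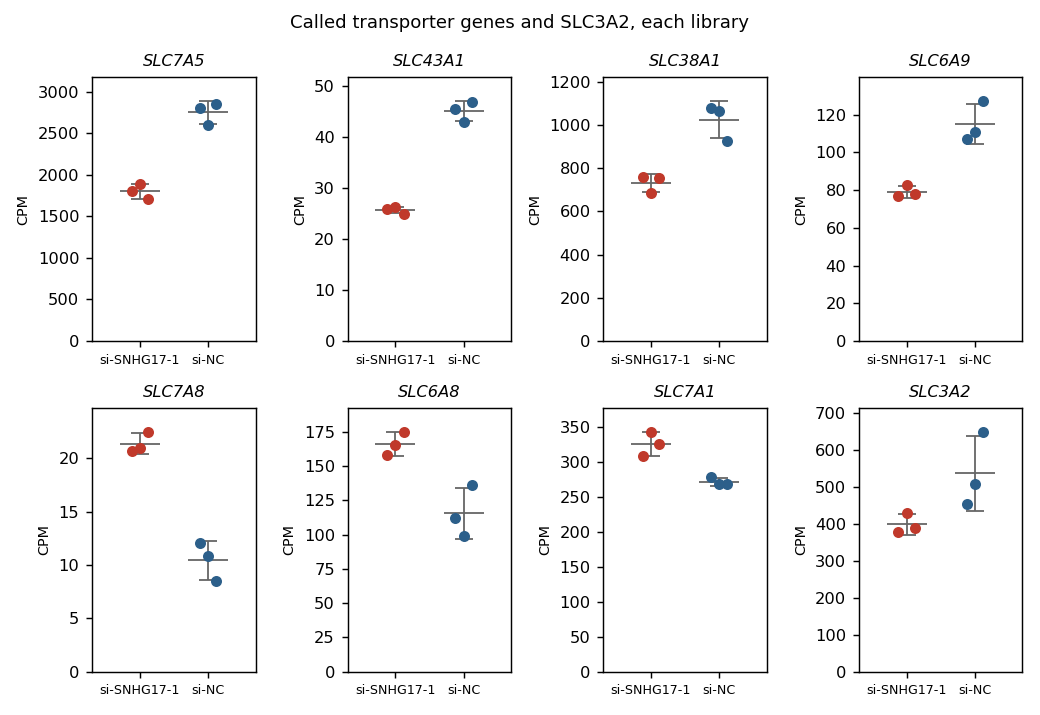
CPM of the 7 called carrier genes and of SLC3A2 in each library (points), with the mean and SD of 3 libraries per group. Each panel starts at 0. SLC7A5 sits between 1707 and 1885 CPM in si-SNHG17-1 and between 2595 and 2853 CPM in si-NC, SLC7A8 shows the opposite order, and the si-NC points of SLC3A2 are spread between 454 and 649 CPM.

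Promoter windows of the 3 called L-type genes are shown because a window of each holds the same short motif although the genes did not move together. The palindromic E-box CACGTG, bound by MYC and by TFEB and TFE3 among others, was searched in RefSeq promoter windows of GRCh38.p14 that reach from 250 bases before to 50 after an annotated start. It was found in 10 of the 44 carriers with a window, 22.7%, against 8.78% of all 27305 genes with a window. Counted by window, 10 of 66 carrier windows and 7.26% of all windows held it. The background was not limited to genes tested here or matched by promoter type, and enrichment was not tested. The 10 carriers were SLC1A5, SLC1A7, SLC6A16, SLC7A5, SLC7A7, SLC7A8, SLC36A1, SLC38A5, SLC38A7 and SLC43A1, of which 2 were called lower and 1 higher. The 250 bases before the start are printed 5′ to 3′, with the E-box in capitals. In SLC7A8, which has several starts, only the window shown held it. That window lies inside the gene, which extends to 23183674 on chromosome 14, so it belongs to an internal start. Which start these cells use was not tested.
SLC7A5, chr16:87869508-87869757, minus strand: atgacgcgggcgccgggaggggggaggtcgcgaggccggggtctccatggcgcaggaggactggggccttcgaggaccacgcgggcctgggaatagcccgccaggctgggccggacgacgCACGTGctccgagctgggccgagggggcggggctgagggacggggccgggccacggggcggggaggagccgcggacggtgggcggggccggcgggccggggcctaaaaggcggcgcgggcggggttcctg
SLC43A1, chr11:57515703-57515952, minus strand: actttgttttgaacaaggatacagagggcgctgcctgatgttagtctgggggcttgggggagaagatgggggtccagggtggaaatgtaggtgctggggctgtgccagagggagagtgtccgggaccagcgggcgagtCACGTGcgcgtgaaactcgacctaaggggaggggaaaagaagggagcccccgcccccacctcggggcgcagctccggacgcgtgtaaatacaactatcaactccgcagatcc
SLC7A8, chr14:23154394-23154643, minus strand: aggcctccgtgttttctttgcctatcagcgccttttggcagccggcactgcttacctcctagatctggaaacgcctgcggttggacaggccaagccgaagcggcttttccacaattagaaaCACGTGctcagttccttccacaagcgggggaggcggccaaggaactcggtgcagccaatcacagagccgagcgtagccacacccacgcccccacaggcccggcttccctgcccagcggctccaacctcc

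SLC38A1 and SLC38A2 (SNAT1 and SNAT2) are sodium-coupled carriers of glutamine, alanine and other small neutral amino acids. SLC38A1 (ENSG00000111371.15, chromosome 12, 46183063 to 46270017, minus strand) had 758, 684 and 756 CPM in si-SNHG17-1, against 1082, 1067 and 925 CPM in si-NC. The si-SNHG17-1 libraries were all lower, and the gene was called with a log2 fold change of -0.48 ± 0.08 (SE, edgeR adjusted p = 0.0114). Among the alternative fits, only the one with a replicate block did not call SLC38A1. SLC38A2, its neighbour on the chromosome, stood at 675, 636 and 682 CPM in si-SNHG17-1, against 670.4, 1015 and 827 CPM in si-NC. Here si-NC replicate 1 fell among the si-SNHG17-1 libraries, and the log2 fold change of -0.33 ± 0.14 (SE) was not called (edgeR adjusted p = 0.167). It was called without that library (-0.47, edgeR adjusted p = 0.0320).

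SLC1A5 (ASCT2), a sodium-dependent exchanger of glutamine and other neutral amino acids, had 244, 257 and 242 CPM in si-SNHG17-1, against 305.5, 272 and 296 CPM in si-NC. The groups did not overlap, and the log2 fold change of -0.23 ± 0.07 (SE) was not called (edgeR adjusted p = 0.0790). The antisense gene AC008622.2 overlaps 23.4% of its exon bases and differed alike (-0.21 ± 0.08 SE, not called), and their reads may be mixed. Among the other SLC38 genes, SLC38A10 ran at 140.1, 149 and 138 CPM in si-SNHG17-1, against 128, 115 and 125 CPM in si-NC, without overlap and without a call (log2 fold change 0.22, edgeR adjusted p = 0.116). SLC38A3 and SLC38A5, carriers that also take glutamine, had log2 fold changes of -0.28 and -0.08, and SLC38A4 and SLC38A6 had -0.56 and -0.35, none of them called. SLC1A4 (ASCT1), a carrier of serine and alanine, had 76.5, 84.6 and 67.2 CPM in si-SNHG17-1, against 69.3, 70.8 and 83.6 CPM in si-NC, which overlap throughout (log2 fold change 0.03).

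SLC6A9 and SLC6A8 were the called genes of the sodium- and chloride-dependent SLC6 family, in opposite directions. SLC6A9 (GLYT1, ENSG00000196517.11, chromosome 1, 43991500 to 44031467, minus strand) imports glycine. It had 76.6, 82.6 and 77.7 CPM in si-SNHG17-1, against 107, 111 and 127 CPM in si-NC, which do not overlap. The log2 fold change was -0.54 ± 0.09 (SE, edgeR adjusted p = 0.0126), and the call was lost without si-SNHG17-1 replicate 1 or replicate 3 (edgeR adjusted p = 0.0731 and 0.0650). A replicate block also removed the call. Exons of CCDC24 cover 7.83% of its exon bases on the other strand, at 7.52 CPM in si-SNHG17-1 and 6.48 CPM in si-NC.

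SLC6A8 (ENSG00000130821.15, chromosome X, 153688099 to 153696593, plus strand), the creatine carrier, had 158, 165 and 175 CPM in si-SNHG17-1, against 112, 99.0 and 136 CPM in si-NC. All si-SNHG17-1 libraries were higher, with a log2 fold change of 0.52 ± 0.12 (SE, edgeR adjusted p = 0.0359). With a library left out the call held only without si-NC replicate 3, and the adjusted p in edgeR was 0.0737 to 0.114 in the other 5 fits. The call was lost with a replicate block too. Its pseudogene SLC6A10P had at most 7 counts in any library. SLC6A17, a vesicular carrier of neutral amino acids best known from neurons, had 8.50, 8.21 and 7.0 CPM in si-SNHG17-1, against 3.77, 6.37 and 4.19 CPM in si-NC. The groups did not overlap, and the log2 fold change of 0.73 ± 0.23 (SE) was not called (edgeR adjusted p = 0.0905) except without si-NC replicate 2 (0.99, edgeR adjusted p = 0.0365).

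The remaining tested SLC6 genes were not called. SLC6A15, a carrier of branched-chain amino acids and proline, averaged 50.5 ± 5.79 CPM in si-SNHG17-1 and 47.5 ± 9.65 CPM in si-NC (SD, n = 3 each; log2 fold change 0.09). SLC6A7, SLC6A12, SLC6A14 and SLC6A16 were weak, at no more than 2.38 CPM in any library. The log2 fold changes of SLC6A7, SLC6A12 and SLC6A16 were 1.197, -0.02 and 0.17. SLC6A14, which takes up neutral and cationic amino acids, had the largest positive log2 fold change of all 36 genes (1.59 ± 0.81 SE), from counts of 62, 27 and 73 in si-SNHG17-1 and 3, 41 and 18 in si-NC. Its groups overlapped, and the highest si-NC library had 12.3 times the CPM of the lowest. From these few and scattered counts no difference was called (edgeR adjusted p = 0.259).

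SLC7A1 (CAT1, ENSG00000139514.12, chromosome 13, 29509410 to 29595688, minus strand) carries the cationic amino acids arginine and lysine. It had 309, 343 and 326 CPM in si-SNHG17-1, against 278, 268 and 268 CPM in si-NC. The si-NC libraries were close together, and the rise was small, with a log2 fold change of 0.26 ± 0.07 (SE, edgeR adjusted p = 0.0467). It was the weakest of the 7 calls: it failed in all 6 edgeR fits that leave out a library (adjusted p 0.0681 to 0.134) and without the filter on low counts (0.0833). The fit with a replicate block did not call SLC7A1 either. SLC7A2 (CAT2) and the exchangers SLC7A6 and SLC7A7, which use SLC3A2 as their heavy chain, were not called, with log2 fold changes of 1.103, 0.14 and 0.21.

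SLC7A11 (xCT), the light chain that imports cystine in exchange for glutamate, had 278, 245 and 303 CPM in si-SNHG17-1, against 198, 274 and 197 CPM in si-NC. Only si-NC replicate 2 fell within the si-SNHG17-1 range. The log2 fold change of 0.30 ± 0.15 (SE) was not called (edgeR adjusted p = 0.230), and without that library it was 0.48 (edgeR adjusted p = 0.0499). SLC7A11-AS1, whose exons overlap 8.97% of those of SLC7A11 on the other strand, had 760, 754 and 688 counts in si-SNHG17-1, against 323, 995 and 269 counts in si-NC. Its highest library in si-NC was thus also replicate 2, and reads of the pair may be mixed.

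In edgeR with all libraries, the SLC1 glutamate carriers, the lysosomal carriers of these families, SLC36A4 and SLC43A3 gave no call. SLC1A3 (EAAT1), which imports glutamate and aspartate, had 58.5, 97.3 and 59.97 CPM in si-SNHG17-1, against 178, 176 and 80.7 CPM in si-NC. The si-NC replicate 3 value lay inside the si-SNHG17-1 range, and the log2 fold change of -1.01 ± 0.33 (SE) missed the edgeR threshold (adjusted p = 0.0945). DESeq2 called it (adjusted p = 0.00331), as did edgeR without si-NC replicate 3 (-1.30, adjusted p = 0.0307). SLC1A1 (EAAT3) averaged 27.1 ± 0.620 CPM in si-SNHG17-1 and 28.3 ± 5.20 CPM in si-NC. SLC38A9, the lysosomal arginine sensor of mTORC1, averaged 18.7 ± 2.31 CPM in si-SNHG17-1 and 16.7 ± 0.804 CPM in si-NC, and SLC38A7, a lysosomal glutamine exporter, averaged 53.8 ± 6.37 CPM in si-SNHG17-1 and 43.6 ± 7.98 CPM in si-NC (SD, n = 3 each). The log2 fold changes of SLC1A1, SLC38A9 and SLC38A7 were -0.07, 0.16 and 0.30. SLC36A4, a carrier of proline and tryptophan, had 39.6, 38.5 and 48.9 CPM in si-SNHG17-1, against 30.4, 42.7 and 37.0 CPM in si-NC, with overlap (log2 fold change 0.21). SLC43A3 had 279, 256 and 272 CPM in si-SNHG17-1, against 277, 303 and 278 CPM in si-NC, which also overlap (log2 fold change -0.09), and 29.9% of its exon bases are shared with AP000781.2 on the same strand.

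Of the 30 carriers with a mean of 5 CPM or more, 5 had libraries of a group that differed at least 2-fold among themselves. Over all genes at that level, 7.62% did so. SLC6A6, the taurine carrier, was the most extreme, with 91.7, 349.5 and 82.3 CPM in si-SNHG17-1, against 327, 70.4 and 260.4 CPM in si-NC. The high values thus occurred in si-SNHG17-1 replicate 2 and in si-NC replicates 1 and 3, and the edgeR fit had a standard error of 0.68 for a log2 fold change of -0.33. SLC7A6 (y+LAT2) had 75.8, 211 and 202 CPM in si-SNHG17-1, against 213, 103 and 129 CPM in si-NC. SLC7A6OS shares 44.4% of its exon bases on the opposite strand, and averaged 155 ± 4.86 CPM in si-SNHG17-1 and 179 ± 10.1 CPM in si-NC (SD, n = 3 each). SLC7A2 had 26.8, 7.26 and 15.5 CPM in si-SNHG17-1, against 5.81, 13.0 and 4.29 CPM in si-NC. SLC36A1 (PAT1), a proton-coupled carrier of small amino acids, was at 39.9, 46.5 and 37.1 CPM in si-SNHG17-1, against 51.1, 45.4 and 14.1 CPM in si-NC. In that gene only si-NC replicate 3 stood apart, and SLC1A3 was low in the same library.

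**Figure D4:**
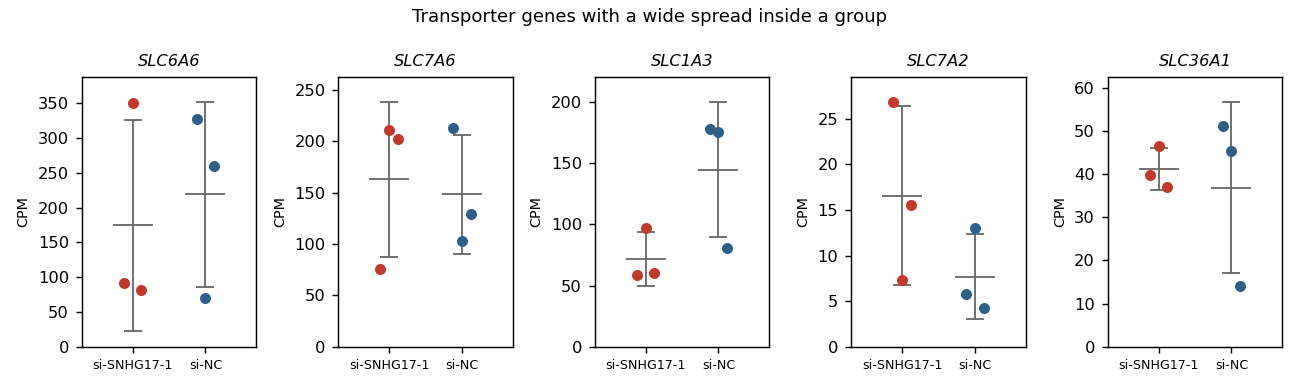
CPM per library of the 5 carrier genes with a mean of 5 CPM or more and at least a 2-fold difference inside a group. Points are libraries, with mean and SD of 3 libraries per group and axes from 0. High and low values occur in both groups for SLC6A6, between 70.4 and 349.5 CPM, and si-NC replicate 3 is low for SLC1A3 and SLC36A1.

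The other 23 carriers had too few counts to be tested. Of these, 11 had no count in any library, which allows at most 0.0993 CPM per gene at the lowest depth, a limit that covers counting error only. These were SLC6A5, SLC6A11, SLC6A13, SLC6A18, SLC6A20, SLC7A3, SLC7A14, SLC36A2, SLC36A3, SLC38A8 and SLC38A11. The remaining 12 reached at most 13 counts in a library, among them the monoamine carriers SLC6A2, SLC6A3 and SLC6A4, the glial glutamate carrier SLC1A2 and the kidney and gut carriers SLC6A19 and SLC7A9. Also in this group were SLC1A6, SLC1A7, SLC7A4, SLC7A10 and SLC7A13.

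The amino acid response element, the site of ATF4 and its CEBP partners, was searched as TGATGNAAN on both strands of the same promoter windows, because ATF4 is a known activator of several of these genes. It was found in 6 of the 44 carriers with a window, 13.6%, against 4.45% of all genes with a window. Counted by window, 6 of 66 carrier windows and 3.61% of all windows held it, again without a matched background or a test of enrichment. All 6 were tested genes: SLC38A1 was called lower, SLC7A1 was called higher, and SLC1A3, SLC1A4, SLC1A5 and SLC3A2 were not called. A window of 30 bases around each match is printed on the gene's strand, with the match in capitals, and in SLC1A4 and SLC3A2 the match is on the opposite strand. SLC7A5 had no match in its window, and no window was at hand for SLC7A11. A gene can have windows at several annotated starts, and which start these cells use was not tested. The antioxidant response element TGACNNNGC, the site of NRF2, was found in 7 of the 44 carriers, 15.9%, and in 16.1% of all genes with a window.
SLC38A1, chr12:46266501-46266530, minus strand: cagacccgaaTGATGAAAAgggatcagcta
SLC7A1, chr13:29595662-29595691, minus strand: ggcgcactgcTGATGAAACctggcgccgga
SLC1A3, chr5:36596358-36596387, plus strand: aggaaatgacTGATGCAAAgcagggttaac
SLC1A4, chr2:64989381-64989410, plus strand: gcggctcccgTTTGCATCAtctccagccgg
SLC1A5, chr19:46784892-46784921, minus strand: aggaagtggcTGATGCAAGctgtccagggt
SLC3A2, chr11:62881719-62881748, plus strand: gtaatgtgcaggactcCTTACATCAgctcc

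Enzymes that make or use the transported amino acids fell where they were called. Of 30 tested, 8 were lower and none higher by edgeR (26.7%, beside 10.5% of all genes), with a median log2 fold change of -0.24. GOT2, the mitochondrial aspartate aminotransferase, averaged 205 ± 7.74 CPM in si-SNHG17-1 and 289 ± 5.17 CPM in si-NC, and ASS1, which joins citrulline and aspartate, averaged 287 ± 15.9 CPM in si-SNHG17-1 and 438 ± 42.8 CPM in si-NC (SD, n = 3 each). Their log2 fold changes were -0.49 ± 0.06 and -0.61 ± 0.09 (SE). The others were PSPH, CBS, GCLC, PSAT1, ODC1 and SHMT2, and enzymes of serine, cysteine, glutathione and polyamine synthesis were among them. With any si-SNHG17-1 library left out, edgeR called 5 enzymes.

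Genes of amino acid sensing and of mTORC1 itself gave 5 higher calls and 1 lower among 35 tested, 17.1% beside 10.5% of all genes. Their median log2 fold change was 0.01. SESN2, the leucine sensor, averaged 77.7 ± 5.64 CPM in si-SNHG17-1 and 32.4 ± 2.06 CPM in si-NC. RRAGD, a Rag GTPase, averaged 51.5 ± 4.08 CPM in si-SNHG17-1 and 21.9 ± 3.75 CPM in si-NC, with a log2 fold change of 1.23 ± 0.15 (SE). RRAGB, RRAGC and FLCN, the last a GTPase activator for RRAGC and RRAGD, were the other rises. RPTOR, the substrate-binding subunit of mTORC1, was the only fall called by edgeR, averaging 75.1 ± 2.79 CPM in si-SNHG17-1 and 126 ± 8.90 CPM in si-NC (log2 fold change -0.75 ± 0.08 SE). Without si-SNHG17-1 replicate 1, edgeR called 3 genes of this list.

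Of 16 genes of the GCN2 and ATF4 response to missing amino acids, 4 were higher and 2 lower (37.5% called, beside 10.5% of all genes, with a median log2 fold change of 0.12). TRIB3, a pseudokinase that restrains ATF4, averaged 311 ± 20.9 CPM in si-SNHG17-1 and 132 ± 9.77 CPM in si-NC. PPP1R15A, which directs the dephosphorylation of eIF2α, averaged 149 ± 7.08 CPM in si-SNHG17-1 and 88.6 ± 7.14 CPM in si-NC. CEBPG and IMPACT were the other genes called higher. ASNS, the asparagine synthetase and an ATF4 target, averaged 60.3 ± 17.2 CPM in si-SNHG17-1 and 147 ± 11.0 CPM in si-NC (log2 fold change -1.28 ± 0.19 SE, edgeR adjusted p = 0.00873). EIF2S1, which encodes eIF2α, was also lower (-0.32 ± 0.06 SE), and was no longer called by edgeR in 4 of the 6 leave-out fits. ATF3 (1.63 ± 0.46 SE, edgeR adjusted p = 0.0625) and DDIT3 (1.03 ± 0.28 SE, edgeR adjusted p = 0.0565) were not called. Nor was ATF4 itself (0.15 ± 0.08 SE, edgeR adjusted p = 0.295). CHAC1 averaged 6.93 ± 5.51 CPM in si-SNHG17-1 and 13.9 ± 5.56 CPM in si-NC (SD), also without a call (edgeR adjusted p = 0.327). The list had 3 calls without si-SNHG17-1 replicate 1 or 3 or si-NC replicate 2.

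Carriers of amino acids outside the 7 families gave 3 higher and 2 lower calls among 18 tested, 27.8% beside 10.5% of all genes, with a median log2 fold change of 0.08. SFXN1, the mitochondrial serine carrier, averaged 127 ± 1.79 CPM in si-SNHG17-1 and 193 ± 9.90 CPM in si-NC (log2 fold change -0.61 ± 0.07 SE). SLC25A12, a mitochondrial aspartate and glutamate carrier, was also lower (-0.60 ± 0.12 SE). MFSD12, needed for cysteine import into lysosomes and melanosomes, averaged 1656 ± 84.7 CPM in si-SNHG17-1 and 1180.1 ± 62.9 CPM in si-NC (0.49 ± 0.06 SE). PQLC2, the lysosomal exporter of cationic amino acids, and SFXN3 were higher by log2 fold changes of 0.51 and 0.35. With a library left out, SFXN3 lost the edgeR call in all 6 fits and SLC25A12 in 4 of 6. The list had 3 calls without si-NC replicate 1, 4 without si-NC replicate 3 and 2 without any other library.

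None of 14 partners and regulators of the carrier proteins was called by edgeR, 3 had an unadjusted p under 0.05 (26.8% of all tested genes did), and DESeq2 and limma-voom called 1 each. BSG, a chaperone of surface carriers also called CD147, averaged 434 ± 48.6 CPM in si-SNHG17-1 and 536 ± 18.7 CPM in si-NC (SD, n = 3 each; log2 fold change -0.31 ± 0.09 SE, edgeR adjusted p = 0.0690). MYC had 144, 155 and 14.2 CPM in si-SNHG17-1, against 136, 179 and 178 CPM in si-NC. Its si-SNHG17-1 replicate 3 stood apart, and the log2 fold change was -0.65 ± 0.69 (SE, edgeR adjusted p = 0.613).

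**Figure D5:**
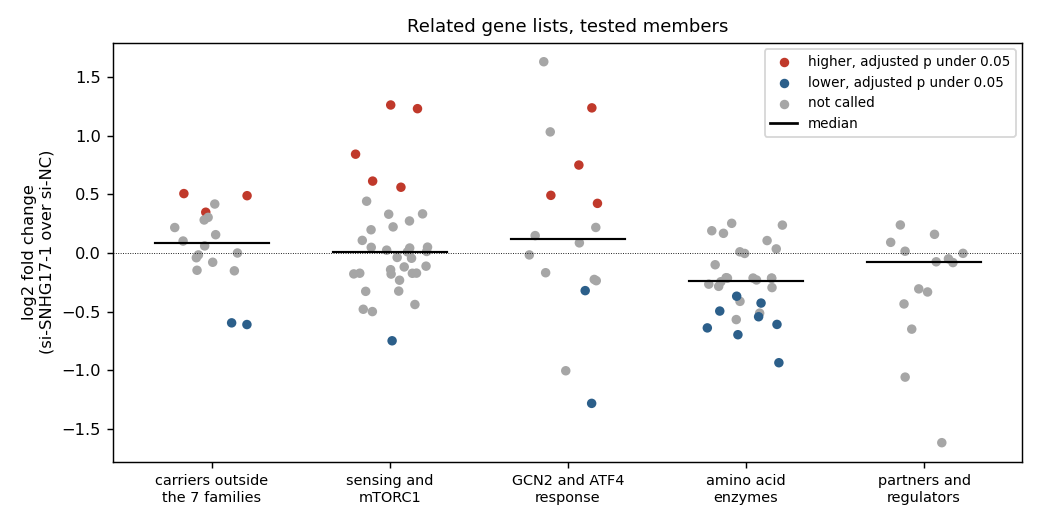
Log2 fold change (si-SNHG17-1 over si-NC) of every tested gene of the 5 related lists, as points with the list median as a line. Called enzymes all lie below 0, and the called sensing and mTORC1 genes lie above 0 except RPTOR. The other 3 lists have calls on both sides or none.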

How the data were processed

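Gene counts from 6 RNA-seq libraries were used as the authors deposited them, as whole-number raw counts per gene and library. Reads had been aligned with HISAT2 to GRCh38, per the submitters' processing notes; for the counting program, annotation and strand setting, the sources used here name none. Counts were normalised by TMM and tested with edgeR 4.0.16 in R 4.3.3 (quasi-likelihood, filterByExpr, no covariate), with Benjamini-Hochberg adjustment over the 18679 genes tested and a threshold of 0.05. Standard errors were taken from each log2 fold change and its F statistic (size over root F). The code was tested on simulated counts. A count of 3 in a library corresponds to 0.0710 to 0.0993 CPM, which covers counting error only. Exon lengths and overlaps came from GENCODE 29 (all 59 carriers matched), and promoter sequences from RefSeq (44 carriers matched).

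Values in every library were planned for each called carrier, for the 2 carriers of each family with the highest CPM in si-NC, and for SLC3A2, SLC7A5, SLC7A11, SLC38A2 and SLC1A5. Related genes were named by fixed lists, and carriers outside this rule, such as SLC6A17 and those with a large spread, were picked after their values were seen. From the related lists, MYC, ATF4, DDIT3, ATF3 and CHAC1 were also picked after their values were seen. The genes and lists were chosen with earlier results of these data known.

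Alternatives were 2 other scalings, 2 other filters, DESeq2 1.42.0, limma-voom (limma 3.58.1), a replicate block and leaving out each library. No 2 libraries of a group agreed within sampling noise, with a chi-square of at least 26.5 per degree of freedom. A gene of the set with too few counts to test is not reported here by name.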

Additional observations from a re-analysis of the deposited data

How the results depend on the processing

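With another scaling, filter or test, the carriers kept 3 higher and 4 lower calls, except that DESeq2 added SLC1A3 and SLC3A2 as lower and the fit without a filter lost SLC7A1. Calls with at least a 2-fold change numbered 1 (SLC7A8, or SLC1A3 without si-NC replicate 3), but 2 in DESeq2 and 0 with the replicate block. The replicate numbers were not shown to pair the libraries, since deviations of same-numbered libraries correlated at -0.02, -0.04 and -0.02. With the replicate block, 0 carriers were called higher and 2 lower (SLC7A5 and SLC43A1), 2 other carriers outside the families, 4 enzymes, and 273 genes higher and 259 lower overall. No filter gave 670 higher and 627 lower over all genes, DESeq2 1426 and 1392. With a library left out, carriers called higher numbered 1 to 3, other carriers 2 to 4, sensing genes 3 to 6, response genes 3 to 6, enzymes 5 to 9 and partners 0 to 1; all genes called higher numbered 313 to 694 and lower 264 to 705. Partners had 1 call with the 1 CPM filter, DESeq2 and limma-voom. No called carrier changed sign. Of 464 other values of carriers, 19 did, in 9 uncalled genes. The log2 fold change reached 0.024 with total counts only and 0.0025 with the block for SLC6A12 and -0.014 with limma-voom for SLC7A7. With a library left out it ran between -0.17 and 0.091 (SLC1A1), -0.045 and 0.13 (SLC1A4), -1.32 and 0.077 (SLC6A6), -0.27 and 0.26 (SLC6A12), -0.073 and 0.19 (SLC6A15), -0.064 and 0.36 (SLC6A16), -0.085 and 0.49 (SLC7A6), -0.25 and 0.59 (SLC7A7) and -0.23 and 0.46 (SLC36A1). The cause of these differences was not tested. For genes under 1 CPM, depth limits what can be seen.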
